A study of Mus musculus with 8 samples.

Results

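Respiratory complex I, the NADH:ubiquinone oxidoreductase, is the entry point of electrons from NADH into the mitochondrial respiratory chain. The nuclear genes of its subunits were followed here in the soleus, a calf muscle rich in slow fibres. The members were the protein-coding genes whose symbols begin with Ndufa, Ndufb, Ndufc, Ndufs or Ndufv followed by a number. This rule found 37 genes among the 22880 genes counted. No counted gene was found under the symbol Ndufb1, a further subunit of the complex. All 37 passed the filter on low counts that left 14001 genes for testing. Soleus RNA was sequenced from 8 male C57BL/6 mice at 2 months of age, of which 4 were controls (Dnm2 +/+) and 4 carried the Dnm2 +/K562E genotype. Dnm2 encodes dynamin 2, a GTPase that cuts vesicles from membranes. The mutant allele is a knock-in at the endogenous gene that leaves a LoxP site in an intron, and it is heterozygous in every tissue, so that no single cell type is targeted. The RNA came from whole muscle, and a lower number of muscle fibres or nuclei and less RNA per fibre cannot be told apart in these values.

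Complex I has an L shape, with a matrix arm that takes electrons from NADH and passes them to ubiquinone, and a membrane arm that pumps protons. Its catalytic core is conserved from bacteria, and the core subunits of the membrane arm are encoded in mitochondrial DNA. The nuclear genes supply the core of the matrix arm and all accessory subunits, which surround the core and are needed to assemble and hold it. A slow muscle such as the soleus relies on oxidative metabolism and is rich in mitochondria. The 37 members were divided by these roles into 7 core genes, of which 3 belong to the NADH-oxidizing module and 4 to the ubiquinone-binding module, and 28 accessory genes, of which 9 lie in the matrix arm and 19 in the membrane arm. The remaining 2, Ndufa4 and Ndufa4l2, carry the family's name but are no subunits of the complex as it is now defined, since Ndufa4 is assigned to complex IV. The genes are spread over 15 chromosomes, and positions are given on GRCm38.

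The libraries held 33407430 to 48832814 counts per mouse. The 35 subunit genes had at least 1350 counts in every mouse, so counting error was small beside their differences between the genotypes. Values below are normalized CPM, the counts scaled to a common library size with TMM factors, a scaling that assumes most genes do not differ. The TMM factors were 0.91 to 0.96 in controls and 1.04 to 1.10 in Dnm2 +/K562E mice. Dnm2 itself, whose point mutation is not visible in gene counts, had 68.8, 68.5, 59.2 and 68.7 normalized CPM in controls 1 to 4 and 74.2, 76.1, 73.2 and 70.3 in Dnm2 +/K562E mice 1 to 4. Its log2 change of 0.15 ± 0.066 (SE) had an adjusted p of 0.0909 with TMM factors and of 0.00271 at a log2 change of 0.36 without them. The labelled tissue was checked on 12 muscle fibre genes, which were all present, with a summed level of 79610 to 88300 normalized CPM in controls. Their presence shows skeletal muscle and does not tell the soleus from another muscle.

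All 37 members were lower in Dnm2 +/K562E soleus, with an adjusted p under 0.05 by the quasi-likelihood test of edgeR. Of all tested genes, 21.7% were called lower by the same rule. In each of the 37 members, every Dnm2 +/K562E mouse lay below every control mouse, which held for 20.5% of all tested genes. The log2 fold changes, called log2 changes here, ran from -0.999 for Ndufs7 to -0.33 for Ndufs5 on the log2 scale. Their median was -0.64, against 0.01 for all tested genes, and 7.76% of the tested genes had a fold change below that median. With the added threshold of 0.58 on the size of the log2 change, 25 of the 37 were called, against 7.85% of all tested genes. Ndufa10, at -0.59, was the last gene past that threshold, and Ndufa2, at -0.56, the first short of it. When libraries were scaled by their totals alone, all 37 were still lower, 35 of them at an adjusted p under 0.05, but 5 passed both thresholds. That scaling moves every gene by nearly the same amount and raised the median log2 change of all tested genes to 0.22. The members' median minus that of all genes was thus bound to stay alike. It was -0.64 with either scaling, which is no check of the result.

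**Figure D1:**
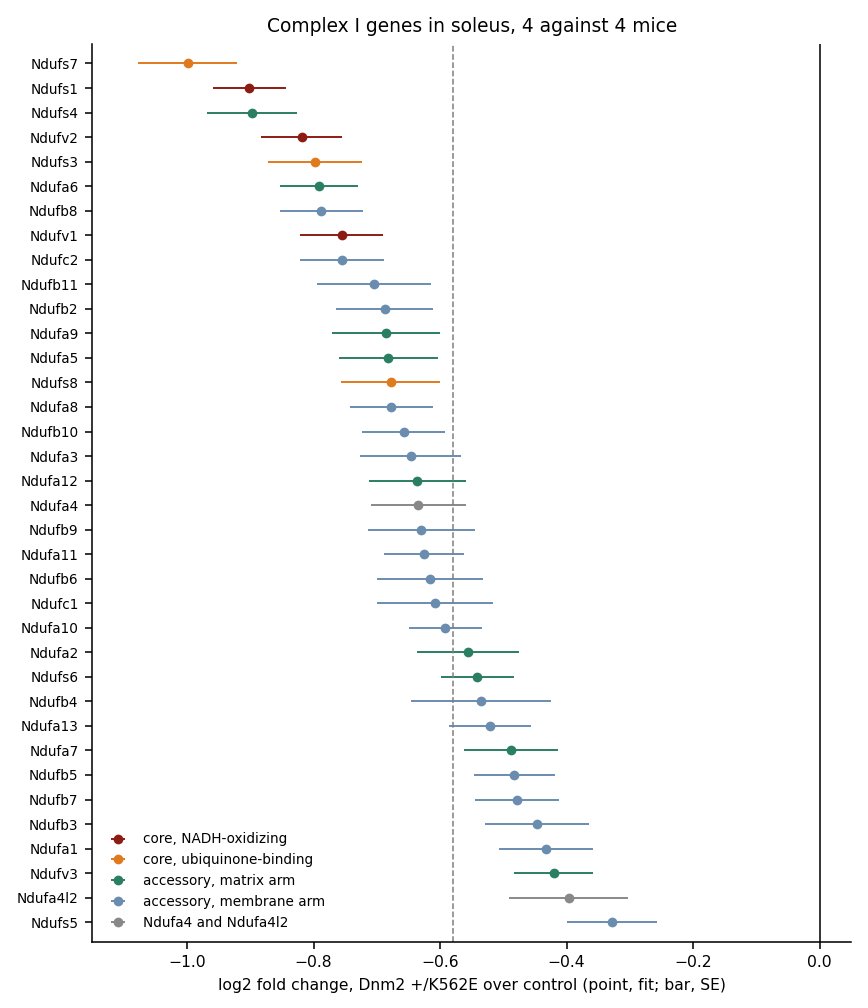
Log2 fold changes (x axis, Dnm2 +/K562E over control) of 36 members, sorted from the largest fall at the top, with points for the fitted value, bars for the standard error and colours for the role of the gene. The dashed line marks -0.58 and the solid line 0, and every point lies left of 0, from -0.999 for Ndufs7 to -0.33 for Ndufs5, with all 6 core genes plotted left of the dashed line.

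The core genes had the lower fold changes. All 7 passed both thresholds, with a median of -0.80, which is 57.5% of the control level. Of the 28 accessory genes, 17 passed both, and their median was -0.62, or 65.0% of the control level. The medians thus differed by -0.18 on the log2 scale, and all 7 core fold changes lay below the accessory median, whereas 1 of 28 accessory fold changes lay below the core median. The ranges overlapped, with Ndufs4, an accessory gene, at -0.90 and Ndufs8, a core gene, at -0.68. The members share their libraries and are not replicates, so this difference between medians carries no test.

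The same contrast can be read mouse by mouse. The mean log2 CPM of the core genes minus that of the accessory genes was 0.94, 0.99, 0.99 and 0.98 in controls 1 to 4 and 0.79, 0.80, 0.77 and 0.76 in Dnm2 +/K562E mice 1 to 4. The means were 0.98 ± 0.023 and 0.78 ± 0.019 (SD, n = 4 each), and the genotypes did not overlap. The value is a ratio within each library, so the scaling between libraries hardly enters it. The same ratio for the matrix arm, core and accessory genes together, over the membrane arm was 0.49 ± 0.0087 in controls and 0.37 ± 0.033 in Dnm2 +/K562E mice (SD, n = 4 each), again without overlap. Within the accessory genes the arms were close, with a median fold change of -0.64 for the 9 of the matrix arm and -0.62 for the 19 of the membrane arm.

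**Figure D2:**
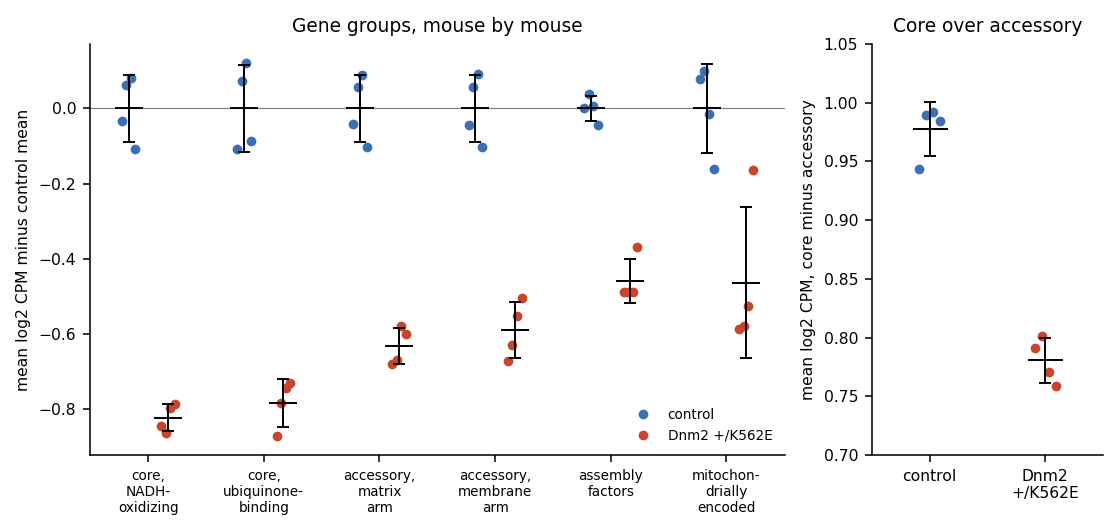
Left, mean log2 CPM of each gene group in each mouse (y axis, minus the control mean). Right, the mean log2 CPM of the 7 core genes minus that of the 28 accessory genes. Blue points are the 4 controls, red points the 4 Dnm2 +/K562E mice, and black bars the mean ± SD. The core modules lie at -0.82 and -0.78, the accessory arms at -0.63 and -0.59, and the core to accessory difference drops from 0.98 to 0.78.

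The NADH-oxidizing module takes the electrons up. Ndufv1 (ENSMUSG00000037916, chr19:4007384-4012806, minus strand), which binds NADH and the flavin, had 372, 415, 391 and 347 normalized CPM in controls 1 to 4 and 218, 223, 230.5 and 232 in Dnm2 +/K562E mice 1 to 4. The highest mutant value was 66.8% of the lowest control value, and the fit gave a log2 change of -0.76 ± 0.065 (SE, n = 4 per genotype, adjusted p = 7.89e-06). Ndufv2 (ENSMUSG00000024099, chr17:66078638-66101559, minus strand), its iron-sulphur partner, had 507, 532, 560.3 and 474 in controls and 288, 286, 300.5 and 302 in Dnm2 +/K562E mice. The latter had a coefficient of variation of 2.81% and lay far under the controls, with a log2 change of -0.82 ± 0.064 (SE, n = 4 per genotype, adjusted p = 4.31e-06). Ndufs1 (ENSMUSG00000025968, chr1:63143596-63176833, minus strand), the large iron-sulphur protein that carries the electrons onward, had 488, 512, 534 and 479 in controls and 272, 258, 272 and 276 in Dnm2 +/K562E mice. It had a log2 change of -0.90 ± 0.058 (SE, n = 4 per genotype, adjusted p = 1.39e-06), which leaves 53.5% of the control level.

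In the ubiquinone-binding module, Ndufs7 (ENSMUSG00000020153, chr10:80249121-80256794, plus strand) holds the last iron-sulphur cluster before ubiquinone. Its level was 186, 219.9, 230.4 and 205 normalized CPM in controls 1 to 4 and 95.0, 109.6, 109 and 107 in Dnm2 +/K562E mice 1 to 4, the lowest of them in mouse 1. This was the largest fall among the members, to 50.03% of the control level, with a log2 change of -0.999 ± 0.078 (SE, n = 4 per genotype, adjusted p = 4.3e-06). Ndufs3 (ENSMUSG00000005510, chr2:90894634-90904827, minus strand), present in the earliest assembly intermediates, had 188, 217, 219 and 184 in controls and 108, 117, 123 and 116 in Dnm2 +/K562E mice, and a log2 change of -0.80 ± 0.075 (SE, n = 4 per genotype, adjusted p = 1.41e-05). Ndufs8 (ENSMUSG00000059734, chr19:3908863-3912774, minus strand), another iron-sulphur protein, had 169.5, 178, 195 and 161 in controls and 104, 102, 112 and 122 in Dnm2 +/K562E mice. Dnm2 +/K562E mouse 4 was here the nearest to the controls, and the fit gave a log2 change of -0.68 ± 0.078 (SE, n = 4 per genotype, adjusted p = 5.88e-05).

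**Figure D3:**
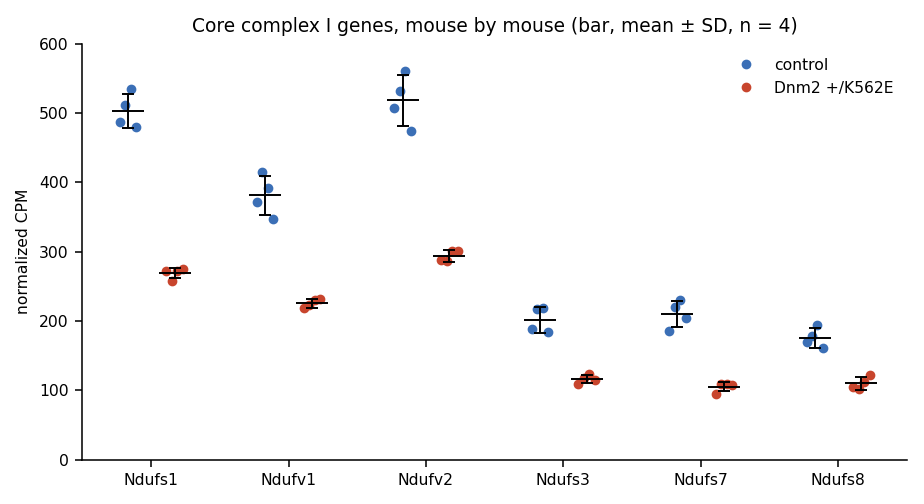
Normalized CPM (y axis, from 0) of 6 core genes in each of the 4 controls (blue) and 4 Dnm2 +/K562E mice (red), with black bars for the mean ± SD (n = 4). In each of these genes all red points lie under all blue ones, with the lowest point of each genotype at 95.0 against 186 for Ndufs7 and at 286 against 474 for Ndufv2.

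Among the accessory genes, Ndufs4 (ENSMUSG00000021764, chr13:114287795-114388258, minus strand) stood next to the core. It encodes a matrix-arm subunit that helps to hold the NADH-oxidizing module in place and whose loss in mice gives a model of Leigh syndrome. It had 200.5, 219, 235 and 195 normalized CPM in controls 1 to 4 and 109, 111, 116 and 120.3 in Dnm2 +/K562E mice 1 to 4, with a log2 change of -0.90 ± 0.071 (SE, n = 4 per genotype, adjusted p = 4.41e-06). Ndufa6 (ENSMUSG00000022450, chr15:82350140-82354322, minus strand), a matrix-arm subunit that binds the acyl carrier protein, had 243, 258, 259 and 236 in controls and 133, 145, 151 and 146 in Dnm2 +/K562E mice. The fit gave a log2 change of -0.79 ± 0.061 (SE, n = 4 per genotype, adjusted p = 4.13e-06). In the membrane arm, Ndufb8 (ENSMUSG00000025204, chr19:44548572-44555440, minus strand) had 335, 349.8, 366 and 330.4 in controls and 181, 198, 211 and 210.4 in Dnm2 +/K562E mice, with a log2 change of -0.79 ± 0.066. Ndufc2 (ENSMUSG00000030647, chr7:97400003-97407802, plus strand) had 125, 137, 144 and 125 and 76.0, 74.9, 83.2 and 81.0, with a log2 change of -0.75 ± 0.067. In these 4 genes the highest mutant value was 61.7% to 66.4% of the lowest control value.

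The smallest falls were also among accessory genes. Ndufs5 (ENSMUSG00000028648, chr4:123712710-123718202, minus strand), a small subunit on the intermembrane-space side, had 69.9, 72.8, 76.3 and 67.2 normalized CPM in controls 1 to 4 and 52.1, 57.3, 55.8 and 62.9 in Dnm2 +/K562E mice 1 to 4. Mouse 4 reached 93.5% of the lowest control value, and the fit gave a log2 change of -0.33 ± 0.071 (SE, n = 4 per genotype, adjusted p = 0.00357). Ndufv3 (ENSMUSG00000024038, chr17:31520115-31531331, plus strand), a small accessory subunit at the NADH-oxidizing module, had 155, 158, 155 and 135 in controls and 113, 109, 118 and 110.4 in Dnm2 +/K562E mice. Control 4 was the low one of its group, and the fit gave a log2 change of -0.42 ± 0.063 (SE, n = 4 per genotype, adjusted p = 0.000325). Ndufa1 (ENSMUSG00000016427, chrX:37187588-37191163, minus strand), a short membrane-spanning subunit, had 93.8, 105, 99.1 and 85.1 and 68.4, 72.0, 76.0 and 67.2, with a log2 change of -0.43 ± 0.074. Ndufb3 (ENSMUSG00000026032, chr1:58586384-58595964, plus strand), of the membrane arm, had 173, 167, 174 and 145 and 115, 110.4, 122 and 136, with a log2 change of -0.45 ± 0.082, and its mutant mouse 4 was close to control 4. The genotypes were still apart in each of the 4, though by less than in the genes above.

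The other accessory genes lay between these ends. In the matrix arm, Ndufa9, which lies by the ubiquinone-binding module, had a log2 change of -0.68, Ndufa5 of -0.68, Ndufa12 of -0.64, Ndufa2 of -0.56, Ndufs6 of -0.54 and Ndufa7 of -0.49. All 6 were past the adjusted p threshold and 3 of them past both. In the membrane arm, Ndufb11 had -0.70, Ndufb2 -0.69, Ndufa8 -0.68, Ndufb10 -0.66, Ndufa3 -0.65, Ndufb9 -0.63, Ndufa11 -0.63, Ndufb6 -0.62, Ndufc1 -0.61 and Ndufa10 -0.59, all log2 changes past both thresholds. Ndufb4 had -0.54, Ndufa13 -0.52, Ndufb5 -0.48 and Ndufb7 -0.48, past the adjusted p threshold alone. Ndufa10, whose protein resembles a nucleoside kinase, varied least among the mutant mice, with a coefficient of variation of 0.74%, and Ndufb4 varied most, with 13.8%. The spread of Ndufa10 is smaller than counting error alone gives at its 7843 to 14274 counts per mouse, so it is no trait of the gene.

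The pair outside the complex was lower as well. Ndufa4 (ENSMUSG00000029632, chr6:11900292-11907497, minus strand), now counted with cytochrome c oxidase, had 484, 548, 561.8 and 477 normalized CPM in controls 1 to 4 and 304, 336, 338 and 357 in Dnm2 +/K562E mice 1 to 4, with a log2 change of -0.63 ± 0.076 (SE, n = 4 per genotype, adjusted p = 7.57e-05). Ndufa4l2 (ENSMUSG00000040280, chr10:127514967-127517154, plus strand), its paralog, known as a gene induced by low oxygen, had 20.9, 17.8, 22.5 and 19.9 and 13.8, 16.1, 16.9 and 14.7, with a log2 change of -0.40 ± 0.094 (SE, n = 4 per genotype, adjusted p = 0.00596). Control 2 was the low control of Ndufa4l2 and came close to mutant mouse 3. Without TMM factors, Ndufa4l2 and Ndufs5 were the 2 members that missed the adjusted p threshold, at 0.127 and 0.136. Ndufab1 (ENSMUSG00000030869, chr7:122085403-122101886, minus strand), the mitochondrial acyl carrier protein and a subunit that the symbol rule leaves out, had 195, 217, 207 and 186 in controls and 114, 119.7, 126 and 124 in Dnm2 +/K562E mice, with a log2 change of -0.73 ± 0.065 (SE, n = 4 per genotype, adjusted p = 9.56e-06).

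The mice of each genotype kept an order over the members. Control 3 had the highest control value in 26 of the 37 members and control 4 the lowest in 28. Among Dnm2 +/K562E mice, mouse 4 was highest in 21 and mouse 3 in 13, whereas mouse 1 was lowest in 19 and mouse 2 in 15. Over all 37, the mean log2 CPM relative to the control mean was -0.05, 0.05, 0.10 and -0.10 in controls 1 to 4 and -0.71, -0.67, -0.59 and -0.58 in Dnm2 +/K562E mice 1 to 4. The members move together between mice of one genotype, so the 37 calls are not 37 independent observations. Together the members took 0.759% to 0.8294% of all counts in controls and 0.564% to 0.581% in Dnm2 +/K562E mice, a share that uses no scaling factor.

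Levels of different genes were compared per kilobase of merged exons. In controls, Ndufb9, a membrane-arm subunit that binds the acyl carrier protein, was the highest at 420.4 ± 24.5 normalized CPM per kb, followed by Ndufa4 at 375 ± 31.4 (SD, n = 4 each). Ndufb9 had 432, 445, 458 and 399 normalized CPM in controls 1 to 4 and 242, 279.8, 278 and 321 in Dnm2 +/K562E mice 1 to 4. The lowest were Ndufb2 at 19.2 ± 1.93 and Ndufa4l2 at 18.5 ± 1.78 normalized CPM per kb, which lie within each other's spread. Ndufb2 had 101, 114, 121 and 97.4 normalized CPM in controls and 64.0, 65.2, 69.0 and 70.5 in Dnm2 +/K562E mice. These genes also held the top 2 and the bottom 2 ranks when the longest coding transcript or the principal transcript gave the length, with Ndufa4 then above Ndufb9. Ranks in between depended on the length used. The merged exons of Ndufb7, for example, cover 4522 bases and its principal transcript 623, and the rank correlation of levels between the merged and the principal length was 0.638 over the 35 subunits.

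Core and accessory genes had similar levels per kilobase, but not per gene. In controls, the median level was 381.4 normalized CPM over core genes and 166.2 over accessory genes. Their difference in fold change was not tested apart from this difference in level. Per kilobase, the median over core genes was 1.02 times that over accessory genes in controls, with ratios of 0.983, 0.997, 1.07 and 1.01 in controls 1 to 4. Per-kilobase levels of subunits spread over a 21.9-fold range in controls and a 22.8-fold range in Dnm2 +/K562E mice. Their order hardly moved between the genotypes, with a Spearman rho of 0.985 over the 37 members as a description. Across members, the fold change had a Spearman rho of -0.518 with the control CPM, of -0.17 with the level per kilobase, of -0.357 with the length of the principal transcript and of 0.05 with GC content. These points share the same 8 libraries, and CPM itself rises with gene length.

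**Figure D4:**
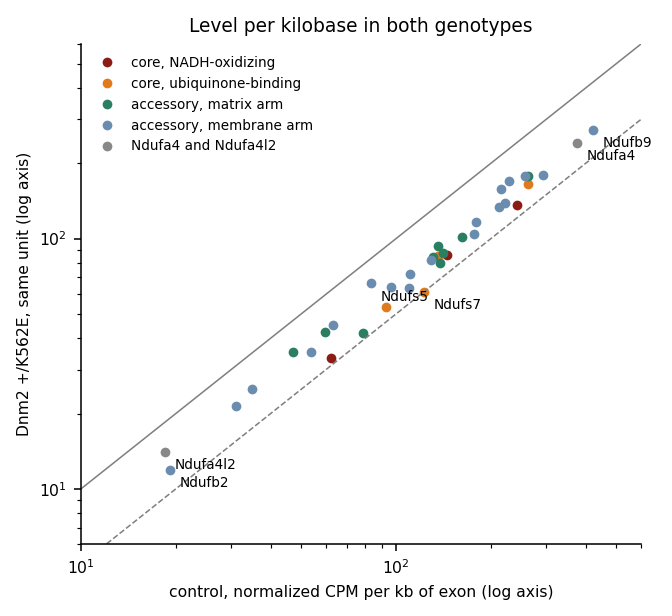
Mean normalized CPM per kb of merged exons in controls (x axis) and in Dnm2 +/K562E mice (y axis), both on log axes, with 1 point per member coloured by role. The solid line marks equal levels and the dashed line 50% of the control level, and the points run between them in nearly the same order, from Ndufa4l2 and Ndufb2 at the bottom to Ndufa4 and Ndufb9 at the top, with Ndufs7 on the dashed line.

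Some members have reads that could belong elsewhere. In 12 of the 37, over 10% of the 31-base stretches of their transcripts also occur in transcripts of other genes, most often processed pseudogenes. The highest shares were in Ndufb6 (34.4%), Ndufa13 (33.2%), Ndufb11 (29.0%) and Ndufs5 (26.5%). Ndufb6 shares them with Smim27 and Ndufa13 most with Tssk6, both protein-coding genes. The median log2 change was -0.58 in these 12 and -0.68 in the other 25. Within the 28 accessory genes, the share had a Spearman rho of 0.362 with the fold change. The part of shared sequence in the difference between core and accessory genes was not tested. Exons of 12 members overlap a gene on the opposite strand, and strand use in the counting is not given in the sources used here. Their median was -0.64, as in the other 25. On the same strand, only Ndufb8 has exons that overlap another counted gene, Gm20538, over 4.26% of its exon bases.

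Because the members moved together, their promoters were searched for letters that factors of mitochondrial biogenesis are known to bind. The motifs were GCGCANGCG for nuclear respiratory factor 1 (NRF1), TNAAGGTCA for the oestrogen-related receptors (ERR) and CCGGAAGT for ETS factors such as GABP. Both strands were searched in windows of 250 bases before to 50 after the start, taken from RefSeq on GRCm38.p6. A window was found for 32 of the 37 members, and Ndufa2, Ndufa4l2, Ndufb9 and Ndufs1 were among those without one. The NRF1 letters were in 8 of the 32 windows (25%) and in 6.25% of all 32851 windows. All 8 were of accessory genes, as were most of the 32 windows. The ERR letters were in 1 member (3.12%, against 1.28% of all windows), and the ETS letters in 1 (3.12%, against 3.89%). Each member was represented by its window with the most matches, whereas all 32851 windows, of 27025 genes, were counted. The shares of members can thus be raised against those of all windows, by an amount that was not measured. The NRF1 letters read nearly the same on both strands, and overlapping matches were counted separately, which applies to Ndufa11. The median log2 change was -0.64 in the 8 members with the NRF1 letters and -0.64 in the 24 without, and the 8 included Ndufa6 (-0.79) as well as Ndufs5 (-0.33).

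The windows of Ndufb4 (chr16:37654319-37654618, minus strand), which held the most matches, and of Ndufa8 (chr2:36049289-36049588, minus strand), which held 2 that do not overlap, are printed below with those of Ndufs3 (chr2:90904672-90904971, minus strand), the core gene with a match, and of Ndufs7 (chr10:80249199-80249498, plus strand), the member with the largest fall. They read 5′ to 3′ on the strand of the gene, with matched letters in capitals.
Ndufb4: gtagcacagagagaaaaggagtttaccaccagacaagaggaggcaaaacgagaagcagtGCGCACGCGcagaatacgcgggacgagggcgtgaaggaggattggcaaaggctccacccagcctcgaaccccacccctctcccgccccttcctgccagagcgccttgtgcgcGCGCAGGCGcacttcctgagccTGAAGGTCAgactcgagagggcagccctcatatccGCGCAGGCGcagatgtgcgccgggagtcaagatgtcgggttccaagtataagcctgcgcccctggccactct
Ndufa8: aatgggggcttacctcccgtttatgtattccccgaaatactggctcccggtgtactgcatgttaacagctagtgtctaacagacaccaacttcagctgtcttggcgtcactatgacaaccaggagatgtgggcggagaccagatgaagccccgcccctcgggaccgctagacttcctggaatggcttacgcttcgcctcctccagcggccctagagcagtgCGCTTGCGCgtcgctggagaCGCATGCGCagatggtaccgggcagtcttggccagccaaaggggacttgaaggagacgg
Ndufs3: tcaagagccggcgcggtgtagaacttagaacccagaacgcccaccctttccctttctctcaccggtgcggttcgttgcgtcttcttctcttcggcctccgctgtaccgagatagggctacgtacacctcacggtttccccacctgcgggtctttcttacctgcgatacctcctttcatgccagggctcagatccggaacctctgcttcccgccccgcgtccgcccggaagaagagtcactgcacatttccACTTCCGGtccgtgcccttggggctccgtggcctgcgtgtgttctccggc
Ndufs7: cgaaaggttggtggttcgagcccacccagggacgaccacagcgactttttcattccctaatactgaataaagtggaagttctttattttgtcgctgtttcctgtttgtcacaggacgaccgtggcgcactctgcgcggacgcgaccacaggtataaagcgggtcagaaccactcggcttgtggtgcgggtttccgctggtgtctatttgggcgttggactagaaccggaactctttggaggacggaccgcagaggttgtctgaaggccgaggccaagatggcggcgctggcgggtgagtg
The capitals in Ndufb4 mark 3 NRF1 matches, which begin at positions -191, -79 and -22 from the start, and 1 ERR match at -57. Ndufb4 had a log2 change of -0.54, above the members' median. In Ndufa8 they mark 2 NRF1 matches on the opposite strand at -29 and -9, and its log2 change was -0.68. In Ndufs3 they mark 1 ETS match on the opposite strand that begins at the start itself. The window of Ndufs7 held none of these letters.

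The core of the membrane arm is encoded in mitochondrial DNA. Of its 7 genes, 5 were lower at an adjusted p under 0.05 and 1 also past the fold change threshold, with a median log2 change of -0.46. The shares of all tested genes were 21.7% and 7.85%. The lowest was mt-Nd3 at -0.99 ± 0.14 (adjusted p = 0.000228), a gene that shares 98.1% of its 31-base stretches with a nuclear copy. Its mean was only 43.7 normalized CPM in controls. Of the others called lower, mt-Nd4l, at 72.6 in controls, shares 98.9% with a pseudogene, and mt-Nd4 shares 62.8%. The abundant mt-Nd1, which adjoins the matrix arm, had 31110, 27350, 26610 and 25560 normalized CPM in controls 1 to 4 and 19380, 17200, 20390 and 23560 in Dnm2 +/K562E mice 1 to 4, with a log2 change of -0.46 ± 0.11 (adjusted p = 0.00576). Its mutant mouse 4 lay nearest to the controls. mt-Nd4l, 1 of the 5 called, missed the adjusted p threshold without Dnm2 +/K562E mouse 1 (0.0561) or mouse 3 (0.0547). With a correction for length and GC content, mt-Nd4l had a log2 change of -0.29 and was not called (adjusted p = 0.11). Without TMM factors, mt-Nd4l (adjusted p = 0.106) and mt-Nd4 (adjusted p = 0.118) missed the threshold. mt-Nd5 had a log2 change of -0.23 ± 0.11 (adjusted p = 0.104). It was -0.30 and called without control 4 (adjusted p = 0.0431), and -0.15 without control 1 (adjusted p = 0.247). mt-Nd6, the gene on the other strand, had 151, 108, 112 and 97.0 in controls and 80.2, 68.1, 91.7 and 185 in Dnm2 +/K562E mice, with a log2 change of -0.14 ± 0.27 (adjusted p = 0.711). Without Dnm2 +/K562E mouse 4 that value was -0.55 (adjusted p = 0.0177). The mean over the 7 relative to the control mean was -0.59, -0.58, -0.52 and -0.16 in Dnm2 +/K562E mice 1 to 4, and mouse 4 lay beside control 4 at -0.16. In the nuclear genes mouse 4 was at -0.75 for the core and -0.54 for the accessory group.

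Assembly factors build the complex without staying in it. Of the 18 tested, 12 were lower at an adjusted p under 0.05, against 21.7% of all tested genes, and the median log2 change was -0.46. The lowest was Ndufaf5, which modifies Ndufs7, at -1.01 ± 0.086 (adjusted p = 7.71e-06), with 28.3, 26.1, 31.8 and 27.6 normalized CPM in controls 1 to 4 and 12.9, 15.6, 14.3 and 13.7 in Dnm2 +/K562E mice 1 to 4. The highest was Nubpl, which delivers iron-sulphur clusters, at 0.03 ± 0.12 (adjusted p = 0.844). The other 5 that did not pass had values of -0.22 (Ndufaf7), -0.18 (Ndufaf3), -0.14 (Dmac1), -0.14 (Timmdc1) and -0.09 (Ndufaf2). Ndufaf7 was called without control 4, at -0.27 (adjusted p = 0.0442), and Timmdc1 without Dnm2 +/K562E mouse 4, at -0.25 (adjusted p = 0.0312). Without that mouse Ndufaf2 was at -0.17 and was not called (adjusted p = 0.182). Ndufaf8, at -0.29 (adjusted p = 0.0425), lost its call in 7 of the 8 comparisons that left out a mouse and kept it only without control 1.

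The other respiratory complexes were lower too, where 21.7% of all tested genes were called lower. All 4 genes of complex II, succinate dehydrogenase, passed the adjusted p threshold, around a median log2 change of -0.86, with values from -0.99 (Sdha) to -0.77 (Sdhd). All 9 genes of complex III were called, from -1.16 (Uqcrc1) to -0.52 (Uqcrq), with a median of -0.68. Of the nuclear genes of complex IV, 11 of 15 were called lower, with a median of -0.60 and a range from -1.04 (Cox6b2, adjusted p = 0.146) to 0.01 (Cox8a). Cox6b2 was near the floor, at a mean of 0.716 normalized CPM in controls and 0.336 in Dnm2 +/K562E mice. The lowest of the genes called was Cox8b at -0.85. Of complex V, the ATP synthase, 17 of 18 were called lower and 1 higher, with a median of -0.66 and a range from -0.82 (Atp5e) to 0.58 (Atpif1, the inhibitor of the enzyme). Genes of import and the outer membrane had a median of -0.44, with 14 of 17 called lower, from -0.71 (Vdac3) to -0.10 (Tomm6). Of 11 regulators of mitochondrial genes, 4 were called lower, against the 21.7% of all tested genes. The lowest was Ppargc1a, a coactivator of mitochondrial biogenesis, at -1.63 ± 0.21 (adjusted p = 0.000129), and the highest Pprc1 at 0.04, around a median of -0.16.

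**Figure D5:**
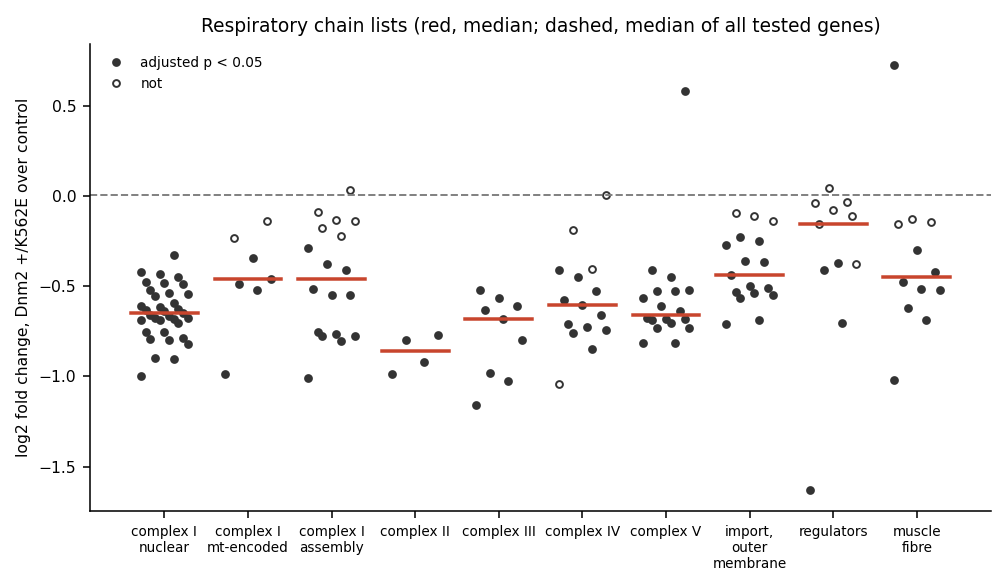
Log2 fold changes (y axis, Dnm2 +/K562E over control) of the genes in each list, with 1 point per gene, filled where the adjusted p was under 0.05. Red lines are medians, which run from -0.86 for complex II to -0.16 for the regulators, with -0.65 for the 35 nuclear complex I subunits, and the dashed line is the median of all tested genes at 0.01.

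Marker genes of several cell types differed between the genotypes. Of all tested genes, 21.7% were called lower, and 49.3% had a log2 change at or below 0. The share called higher was not counted, so the markers called higher have no such share beside them. Of the 12 muscle fibre genes, 8 were called lower and 1, Des, higher, with a median log2 change of -0.45, and their summed level was 79610 to 88300 normalized CPM in controls and 58440 to 65050 in Dnm2 +/K562E mice. All 7 macrophage markers were called higher (summed 72.8 to 135.5 against 179 to 296), as were all 5 fibroblast markers (1810 to 2741 against 3886 to 5034) and all 4 tendon markers (271 to 579.8 against 832 to 1115). Of the 5 endothelial markers 4 were called lower (827 to 868 against 586 to 681). Of the 5 Schwann cell markers 1 was called lower and 1 higher (181 to 199 against 153 to 195), and of the 4 satellite cell genes 3 were called lower and 1 higher. Chodl was the higher one, at 40.0 ± 10.6 normalized CPM in controls and 141.5 ± 16.3 in Dnm2 +/K562E mice (SD, n = 4 each), and it alone carried the rise in the summed level (35.3 to 62.6 against 128 to 160.3), while Pax7, Myf5 and Calcr fell, with log2 changes of -2.03, -1.85 and -3.47. None of the 4 tested adipocyte markers was called by edgeR or DESeq2, or at an unadjusted p under 0.05 (29.3 to 164 against 50.04 to 96.3), and Ucp1 was at 0 in every mouse. The part of these shifts in the values of the complex I genes was not tested.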

How the data were processed

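Soleus RNA of 8 mice, 4 per genotype, was grouped by the genotype in the labels. The authors trimmed reads with Trimmomatic 0.33, aligned them with STAR 2.5.1b to GRCm38.p5 with Ensembl release 80, and deposited raw read counts per gene made with featureCounts (minimum mapping quality 10). Reads over several genes were counted for all of them, and multi-mapping reads at the primary alignment. The library type is open, since the methods name poly A enrichment and the labels a stranded total RNA kit.

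Of 22880 gene IDs, 22647 were matched to GENCODE M21. Counts were filtered with filterByExpr (minimum count 10) and fitted with the quasi-likelihood F-test of edgeR 4.0.16 in R 4.3.3 with TMM factors and genotype as the only term. P-values were adjusted by Benjamini-Hochberg over all 14001 tested genes, with thresholds of 0.05 and, where stated, 0.58 on the log2 fold change. Standard errors were derived from the F statistic, and a prior count of 2 was added for log2 CPM. The fitting was tested on simulated data. Any 2 mice of a genotype differed beyond counting noise (chi-square per degree of freedom of at least 13.0). Genes named mouse by mouse were the core members, Ndufa4, Ndufa4l2, the 4 accessory members with the lowest and the 4 with the highest fold change, and the 2 highest and 2 lowest members per kilobase. Of other lists the genes with the lowest and highest fold change were named, and mt-Nd6, mt-Nd1 and Ndufaf5, shown mouse by mouse, and other genes named from those lists were picked after their values were seen. The values of 1 member are not reported here, though counts and medians over the members include it. The members and lists were chosen with earlier results of these data known. Alternatives were the edgeR exact test, DESeq2 1.42.0, other scalings and filters, a length and GC correction (mgcv 1.9.3), replicate blocks, other gene lengths and leaving out each mouse.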

Additional observations from a re-analysis of the deposited data

Results flagged for a closer look

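Among the 37 members, Ndufab1, the mitochondrially encoded and assembly genes and Dnm2, 128 groups of 4 mice were searched for a mouse whose gap to its nearest neighbour, as a share of the range of the group, was past the critical value of Dixon's test for 4 values. Chance gives about 1 such group in 20, and 7 were found. In Ndufs7, Dnm2 +/K562E mouse 1 was low at 95.0 normalized CPM, with the others at 107 to 109.6 (0.835 of the range). In Ndufb7, Dnm2 +/K562E mouse 4 was high at 125 against 108 to 110.3 (0.862). In Ndufv3, control 4 was low at 135 against 155 to 157.5 (0.869). In Ndufaf2, Dnm2 +/K562E mouse 4 was high at 11.1 against 8.90 to 9.21 (0.858). In Foxred1, Dnm2 +/K562E mouse 2 was low at 15.4 against 17.5 to 17.8 (0.878). In Dmac2, control 1 was high at 59.2 against 47.1 to 48.2 (0.909). In Dnm2, control 3 was low at 59.2 against 68.5 to 68.9 (0.965).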

How the results depend on the processing

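Of the 666 fold changes of single members under the 18 other settings, all 666 were lower and 664 had an adjusted p under 0.05 in the test of that setting. The exceptions were Ndufa4l2 and Ndufs5 without TMM factors. Scaling by library size alone gave 35 members lower at the adjusted p threshold, 5 past both thresholds, medians of -0.42 for all members, -0.59 for core and -0.41 for accessory members, and 3 mitochondrially encoded genes. By its construction this scaling moves every gene by the ratio of the TMM factors. It also turned mt-Nd6 to 0.061, Ndufaf2 to 0.12, Ndufaf3 to 0.035, Timmdc1 to 0.073 and Dmac1 to 0.075, none of them called in either setting. The length and GC correction gave 19 members past both thresholds, a core minus accessory median of -0.22 and 0.046 for mt-Nd6. The cause was not tested. Leaving out 1 mouse gave 22 to 27 members past both thresholds, member medians of -0.68 to -0.62, core minus accessory medians of -0.19 to -0.16, 4 to 6 mitochondrially encoded and 11 to 12 assembly genes called. It gave -0.55 to 0.025 for mt-Nd6, whose call appeared only without Dnm2 +/K562E mouse 4, and -0.018 to 0.0597 for Nubpl. All 7 core members stayed below the accessory median in every setting, and Ndufs7 stayed the lowest member. The level per kilobase of core over accessory members was 0.995 to 1.03 without a control mouse and 1.07 with principal transcript lengths, a setting added after the data were seen. Same-numbered mice are different animals and did not deviate together, with correlations of -0.21 to 0.01 by title number and of -0.17 to 0.18 by description number, so no pairing was assumed. Either replicate block left 37 members lower and 25 past both thresholds, and took the assembly genes called from 12 to 11, since Ndufaf8 missed the threshold (adjusted p = 0.0726 by title and 0.0597 by description number).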
